A study of Mus musculus with 9 samples.

Results

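Malat1, Neat1, Miat, Rmst, Sox2ot, Pantr1, Gas5, Snhg1 and Snhg12 are named long non-coding RNAs of the nucleus, of neural lineages and of growth control, and they were chosen by name, as 9 of the 55704 genes in the expression table. GENCODE classes 9657 genes of the table as long non-coding RNAs. The name "abundant" fitted some of the 9 only: Malat1 ranked 2, 1 and 1 among the long non-coding RNAs by mean FPKM in bFGF/EGF, bFGF/BMP4 and BMP4, whereas Rmst had at most 7 fragments in any library and Neat1 did not exceed 4.16 FPKM. FPKM is the number of sequenced fragments scaled by the length of the gene and the depth of the library. Neat1, with a length of 20771 bases behind its values, had 1034, 1399 and 972 fragments in the BMP4 libraries.

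The cells were neural stem cells (NSCs) of the adult subventricular zone (SVZ) of C57BL/6 mice, for which 2 female and 2 male mice aged 8-9 weeks were used in each isolation. They had gone through at least 3 passages in medium with bFGF and EGF and were attached for 16-18 h to dishes with poly-L-ornithine and laminin. The bFGF/EGF-treated NSCs were collected at day 0, and the bFGF/BMP4-treated and BMP4-treated NSCs were collected after 6 days in medium with bFGF and BMP4 or with BMP4 as the only added factor. Every factor was used at 20 ng/mL, and no group carried a transgene or a deletion by the labels. Each group had 3 libraries, described as biological replicates, and nothing says whether these came from separate mice, so that the tests measure the spread between these libraries. The day 0 libraries served both comparisons with bFGF/EGF, and the treatment and the time in culture cannot be told apart there. In bulk RNA, fewer cells of a type and less RNA per cell cannot be told apart either.

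Malat1 and Neat1 are transcribed side by side and stay in the nucleus, Malat1 in nuclear speckles rich in splicing factors and Neat1 as the scaffold of paraspeckles. Miat is a neural RNA of the nucleus that binds splicing factors, Rmst binds Sox2 in neural differentiation, Sox2ot spans the Sox2 gene, and Pantr1 lies head to head with Pou3f3, which encodes a neural POU factor. Gas5, Snhg1 and Snhg12 carry small nucleolar RNAs (snoRNAs, guides for the modification of ribosomal RNA) in their introns. The spliced host RNAs are known targets of nonsense-mediated decay, and several begin with a stretch of pyrimidines like the mRNAs of ribosomal proteins.

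Sequence features that the literature ties to these RNAs were looked up first, because the results below turn on Malat1, Neat1, Miat and the snoRNA hosts. Malat1 and the long form of Neat1 end, in place of a poly(A) tail, in a genome-encoded tract of A bases that pairs with T-rich stretches upstream of it. The 2 windows below are read on the minus strand of GRCm39, from chr19:5846010-5846105 and chr19:5874736-5874826, and capitals mark the A-rich tract and, for Malat1, the T-rich stretch.
Malat1: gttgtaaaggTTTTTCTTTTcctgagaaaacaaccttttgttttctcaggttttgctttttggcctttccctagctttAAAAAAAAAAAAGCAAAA
Neat1: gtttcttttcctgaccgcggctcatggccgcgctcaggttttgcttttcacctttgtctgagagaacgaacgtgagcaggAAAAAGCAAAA
A tract of this form, at least 4 A bases on each side of GC within 400 bases of the 3 prime end, was found in the longest transcript of 133 of 32884 GENCODE lncRNA genes, or 0.404%. How the libraries were selected for RNA (by poly(A) tail or by depletion of ribosomal RNA) is not given in the sources used here, and RNA ending in such a tract would be caught by one way of selection and less well by the other.

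Miat is known for repeats of the letters TACTAAC (with U for T in the RNA), which match the branch point that splicing factor Sf1 binds. Its longest GENCODE transcript has 9163 bases and holds 6 copies of TACTAAC on the transcribed strand. Miat was the 1 gene of 32884 lncRNA genes with as many, but only 19 of these, Miat included, have a longest transcript of at least that length. Of all 78348 genes, 3 hold as many copies. Neat1 and Gas5 hold 1 copy each and the other members 0. The window of 81 bases with 3 copies lies at chr5:112364608-112364688 on the minus strand of GRCm39, and capitals mark the copies.
Miat repeats: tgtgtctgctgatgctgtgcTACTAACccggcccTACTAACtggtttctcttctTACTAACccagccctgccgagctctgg
The RefSeq promoter table (build GRCm38.p6, 250 bases before to 50 after each start) held Malat1, Miat, Gas5, Snhg1 and Snhg12. The promoter of Miat is shown because Miat made the largest change of the members, and it matched GRCm39 at chr5:112376765-112377064 on the minus strand. Capitals mark its copy of GGCGCC, the core letters of elements known to answer to BMP, which read the same on both strands.
Miat promoter: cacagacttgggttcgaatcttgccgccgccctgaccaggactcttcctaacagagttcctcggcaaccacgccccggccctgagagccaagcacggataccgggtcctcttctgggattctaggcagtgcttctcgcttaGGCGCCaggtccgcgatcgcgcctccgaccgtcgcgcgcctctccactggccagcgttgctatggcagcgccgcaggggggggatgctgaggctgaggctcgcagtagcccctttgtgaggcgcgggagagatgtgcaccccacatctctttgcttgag
Of the 32851 promoters in that table, 11.9% held GGCGCC. Snhg12 had 2 copies, 1 of the 2 starts of Gas5 had 1, and Malat1 and Snhg1 had 0. The letters CACGTG and TGACGTCA were searched for too, and Miat held neither. The other start of Gas5 held 1 copy of TGACGTCA, which 1.79% of the promoters held, and no member held CACGTG.

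The starts of the snoRNA hosts are shown for their pyrimidine run, with 10 bases before and 50 after the start on the plus strand of GRCm39. Capitals mark a run of at least 5 C or T bases that begins with C within 10 bases of the start. They lie at chr1:160862726-160862785 for the second start of Gas5, chr19:8700841-8700900 for Snhg1 and chr4:132035979-132036038 for Snhg12.
Gas5: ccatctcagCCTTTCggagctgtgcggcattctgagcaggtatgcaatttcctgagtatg
Snhg1: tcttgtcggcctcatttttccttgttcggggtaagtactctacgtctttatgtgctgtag
Snhg12: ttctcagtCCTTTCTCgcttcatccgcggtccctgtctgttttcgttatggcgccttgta
Gas5 at this start and Snhg12 held such a run and Snhg1 did not, since an A breaks its pyrimidines. The first start of Gas5 and the start of Malat1 held none. Miat, which is not a snoRNA host, held a run of 7 bases. Of 18 snoRNA host RNAs with an entry, 10 had a run at 1 start at least, against 34.4% of the 27025 genes with an entry. A match of letters is a description and not a site.

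Depth was even over the libraries, with 15901966 to 17437331 fragments on genes. Among the 8 members that passed the filter (mean FPKM of at least 0.1 over 9 libraries), 1 was higher and 0 lower in BMP4-treated than in bFGF/BMP4-treated NSCs at an adjusted p of at most 0.05 and a fold of at least 2, against 8.41% higher and 5.14% lower of the 20207 genes tested. Without the fold threshold the counts were 3 higher and 1 lower, against 12.2% and 8.89% of all genes tested. For bFGF/BMP4 against bFGF/EGF, 2 members were higher and 1 lower with the fold threshold, against 16.5% and 14.1% of all genes tested, and 2 higher and 3 lower without it, against 25.0% and 23.6%. For BMP4 against bFGF/EGF, 3 were higher and 1 lower with the fold threshold, against 21.3% and 15.4%, and 3 higher and 3 lower without it, against 29.6% and 25.3%. With 8 genes these shares say little of the members as a group, and the values of each gene follow.

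**Figure D1:**
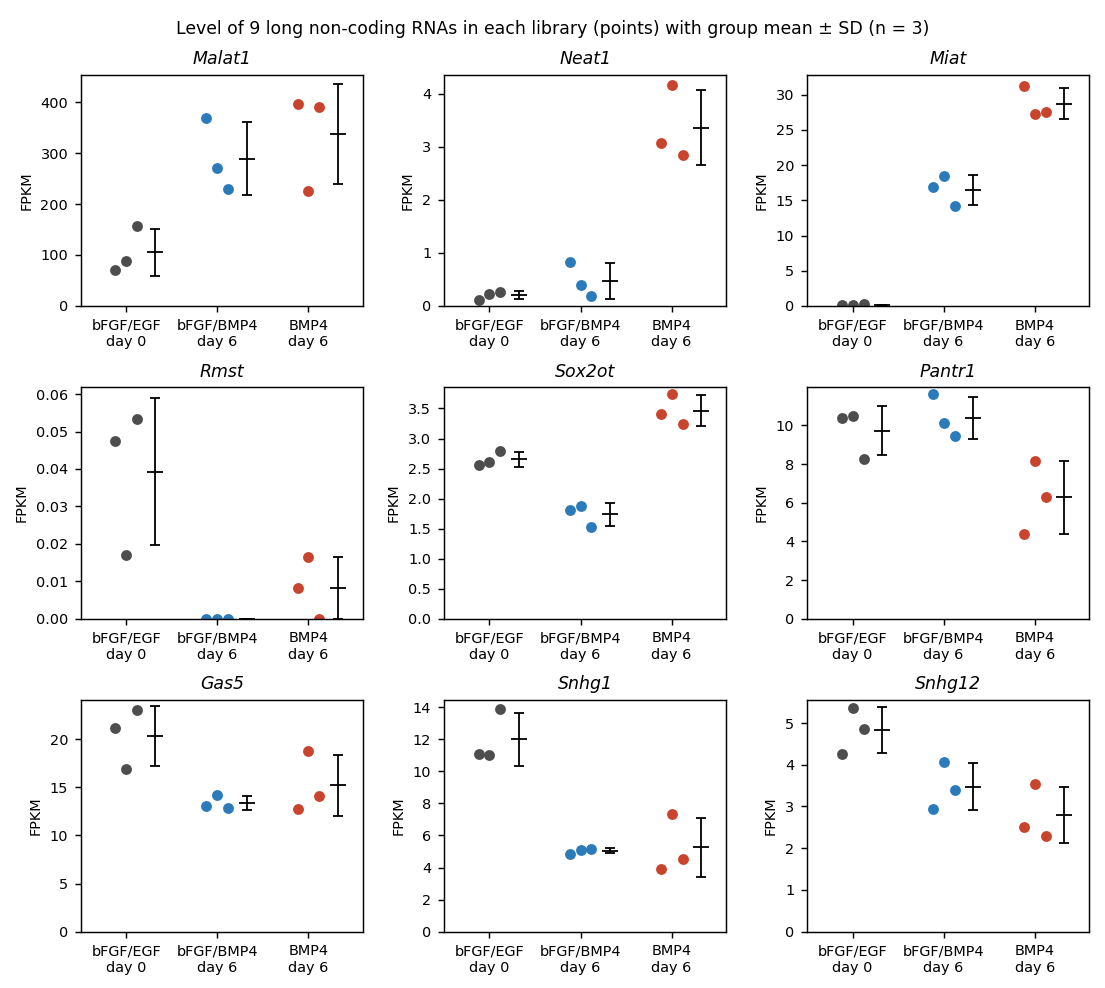
FPKM (vertical axes, linear from 0) of the 9 long non-coding RNAs in each library (points, 3 per group), with the group mean and SD to the right of the points. Miat was at 0.139 to 0.207 FPKM in bFGF/EGF and at 27.3 to 31.3 in BMP4, Neat1 was highest in the BMP4 libraries, Sox2ot was lowest in the bFGF/BMP4 libraries, and Gas5, Snhg1 and Snhg12 were highest on average in bFGF/EGF.

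Malat1 (chromosome 19, 5845717-5853602, minus strand) rose under both BMP4 media. Its level was 71.0, 87.9 and 157 FPKM in the bFGF/EGF libraries, 368, 270 and 229 in bFGF/BMP4, and 397, 225 and 391 in BMP4. Neither BMP4 medium overlapped with bFGF/EGF, while the 2 BMP4 media overlapped with each other. Malat1 was 2.85-fold higher in bFGF/BMP4 than in bFGF/EGF (log2 fold change 1.51 ± 0.32 SE, adjusted p = 0.0033) and 3.29-fold higher in BMP4 than in bFGF/EGF (1.72 ± 0.32, adjusted p = 0.0013). Between the 2 BMP4 media the difference was 0.20 ± 0.32 (adjusted p = 0.72), with a 95% confidence interval of -0.52 to 0.93 that still holds a change of 1.91-fold.

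The share of Malat1 among all long non-coding RNA was followed as well. Long non-coding RNAs held 0.692% ± 0.119 of the fragments on genes in bFGF/EGF, against 0.978% ± 0.0558 under bFGF/BMP4 and 0.961% ± 0.146 under BMP4 (SD, n = 3). Of these fragments, Malat1 held 10.7% ± 3.28 in bFGF/EGF, which compares with 19.4% ± 4.22 under bFGF/BMP4 and 23.2% ± 4.16 under BMP4 (SD, n = 3). Its mean share of the long non-coding RNA was thus higher in each BMP4 medium than in bFGF/EGF. The mean share of all long non-coding RNAs was higher there too, but this total includes Malat1. Malat1 itself held 0.0759%, 0.191% and 0.226% of the fragments on genes on average in bFGF/EGF, bFGF/BMP4 and BMP4. The shared direction is therefore partly built in. The mean total rose by more than Malat1 did in each BMP4 medium. The other long non-coding RNAs together thus held a higher mean share there too, a difference that was not tested.

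**Figure D2:**
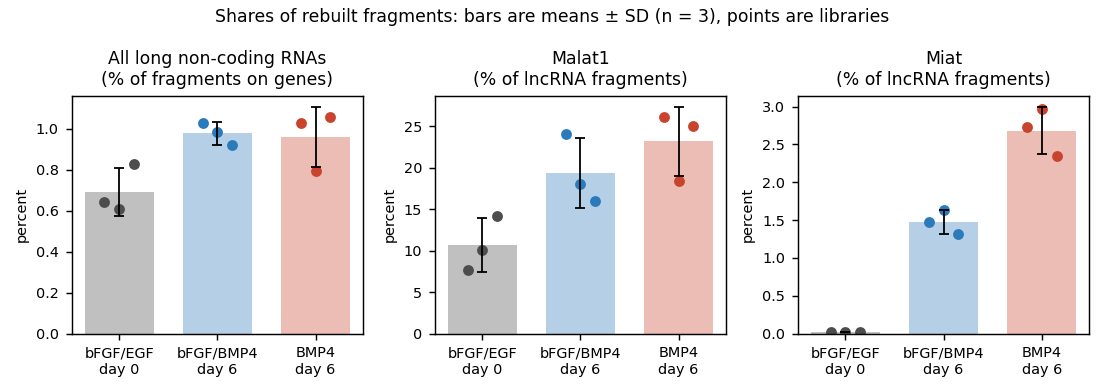
Percent of fragments on genes held by all long non-coding RNAs (left), and percent of the long non-coding RNA fragments held by Malat1 (middle) and by Miat (right), by group. Bars are means, error bars SD (n = 3) and points libraries, and the share of Malat1 was 7.72 to 14.2% in bFGF/EGF and 18.4 to 26.1% in BMP4.

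Neat1 (chromosome 19, 5874736-5897132, minus strand), the next gene to Malat1 on the same strand, was high in BMP4-treated NSCs. It was at 0.119, 0.219 and 0.262 FPKM in bFGF/EGF, at 0.836, 0.386 and 0.183 under bFGF/BMP4 and at 3.07, 4.16 and 2.84 under BMP4. All 3 BMP4 libraries lay above every other library, and the other groups overlapped. Neat1 was 6.75-fold higher in BMP4 than in bFGF/BMP4 (log2 fold change 2.75 ± 0.42 SE, adjusted p = 0.0011) and 11.6-fold higher in BMP4 than in bFGF/EGF (3.54 ± 0.42, adjusted p = 5.8e-05). From bFGF/EGF to bFGF/BMP4 the change was 0.78 ± 0.42 and did not pass (adjusted p = 0.15), but without bFGF/BMP4 replicate 3, its lowest library, the change was 1.20 (adjusted p = 0.031). These fold changes are on the scale of log2(FPKM + 0.1), which understates those of low genes. With a pseudocount of 1 the 2 called changes were 1.58 and 1.85 and still passed. Frmd8, a protein-coding gene 2598 bases from Neat1, did not share the pattern of Malat1: it was at 31.5, 17.6 and 38.1 FPKM on average in bFGF/EGF, bFGF/BMP4 and BMP4 and was higher in BMP4 than in bFGF/BMP4 (1.10, adjusted p = 0.00052).

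Paraspeckles are built from Neat1 and RNA-binding proteins, and the mRNAs of these proteins did not follow Neat1. Protein was not measured, and a value per gene does not separate the long form of Neat1 from a shorter form. Of 15 tested paraspeckle protein genes, 0 passed higher and 0 passed lower with the fold threshold in BMP4 against bFGF/BMP4 (0 higher and 1 lower, Dazap1, without it; 0 and 4 at an unadjusted p under 0.05 by limma; 0 and 0 with the fold threshold by limma-voom), with a median log2 fold change of -0.16 against 0.00 over all genes tested. In BMP4 against bFGF/EGF 7 were lower and 0 higher (14 lower without the fold threshold; median -0.98 against 0.10), and in bFGF/BMP4 against bFGF/EGF 8 were lower and 0 higher (14 lower without it; median -1.0 against 0.06). Of all genes tested, 15.4% and 14.1% were lower in these comparisons with the fold threshold, and 25.3% and 23.6% without it. Hnrnpa1, an RNA-binding protein of splicing, fell most, from 235 FPKM in bFGF/EGF to 63.4 in bFGF/BMP4 and 49.3 in BMP4 (log2 fold changes -1.89 and -2.25, adjusted p = 2.3e-06 and 5.6e-07). Nono, a core paraspeckle protein, was at 129, 46.2 and 42.1 FPKM, and Dazap1 was at 43.7, 19.6 and 12. Hnrnph3 passed in no comparison, with 11.7, 13.8 and 14.0 FPKM.

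The mRNAs for proteins of nuclear speckles, where Malat1 is found, likewise did not rise. Of 11 genes, 4 passed lower and 0 higher in each comparison with bFGF/EGF, and 0 passed either way in BMP4 against bFGF/BMP4, where 0 passed without the fold threshold, at an unadjusted p under 0.05 by limma or by limma-voom too. Without it, 6 were lower in bFGF/BMP4 and 8 in BMP4 against bFGF/EGF, beside 23.6% and 25.3% of all genes tested. With the fold threshold these shares of all genes were 14.1% and 15.4%. The splicing factor Srsf7 was at 57.2 FPKM in bFGF/EGF and at 20.6 and 21.5 in the BMP4 media, and Srsf2 at 122, 49.5 and 43.8. The medians of the list were -0.34, -0.75 and -0.14 in bFGF/BMP4 against bFGF/EGF, BMP4 against bFGF/EGF and BMP4 against bFGF/BMP4.

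Miat (chromosome 5, 112361094-112377261, minus strand) made the largest change of the 9 members. It was at 0.139, 0.143 and 0.207 FPKM in bFGF/EGF, from 22, 21 and 34 fragments, at 16.9, 18.4 and 14.2 in bFGF/BMP4, from 2518, 2626 and 1945 fragments, and at 31.3, 27.3 and 27.6 in BMP4, from 4718, 4106 and 4227 fragments. No groups overlapped. Miat was 63.2-fold higher in bFGF/BMP4 than in bFGF/EGF (log2 fold change 5.98 ± 0.15 SE, adjusted p = 1.1e-08) and 110.0-fold higher in BMP4 than in bFGF/EGF (6.78 ± 0.15, adjusted p = 2.9e-09). BMP4-treated NSCs had 1.74-fold more than bFGF/BMP4-treated NSCs (0.80 ± 0.15, adjusted p = 0.0042), which passed the test and not the fold threshold. Since Miat is near the pseudocount in bFGF/EGF, the size of its change moved with the scale, to 3.90 and 4.67 with a pseudocount of 1 and to 6.59 and 7.38 with limma-voom on fragments, and every one of these passed. Its rank among the long non-coding RNAs went from 1463 in bFGF/EGF to 19 in bFGF/BMP4 and 10 in BMP4, and its share of their fragments from 0.0223% to 1.48% and 2.68%.

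The genes around Miat were not detected or low. Its 5 overlapping genes did not reach the filter, and Cryba4, a lens crystallin gene 17098 bases away, was listed at 0 in bFGF/EGF and at 0.0259 and 0.317 FPKM on average in bFGF/BMP4 and BMP4. At these low levels Cryba4 was higher in BMP4 than in bFGF/BMP4 (log2 fold change 1.75, adjusted p = 0.014 by limma) and than in bFGF/EGF (2.03, adjusted p = 0.0022). From bFGF/EGF to bFGF/BMP4 it did not pass (0.28, adjusted p = 0.62). Among the proteins known to bind Miat or Rmst, the 5 genes gave 1 higher and 0 lower with the fold threshold in BMP4 against bFGF/BMP4 (1 and 1 without it; median -0.13), 0 higher and 1 lower in bFGF/BMP4 against bFGF/EGF (0 and 2 without it; median -0.26) and 0 either way in BMP4 against bFGF/EGF (0 and 1 without it; 0 and 2 at an unadjusted p under 0.05 by limma, 0 and 1 with the fold threshold by limma-voom; median -0.27). Celf3, which encodes an RNA-binding protein known to bind the repeats of Miat, accounted for both calls, with 1.51, 0.664 and 1.63 FPKM in bFGF/EGF, bFGF/BMP4 and BMP4. Of all genes tested, 8.41% were higher in BMP4 against bFGF/BMP4 and 14.1% lower in bFGF/BMP4 against bFGF/EGF with the fold threshold. Sf1, which encodes the branch-point binding protein, was lower in BMP4 than in bFGF/EGF without reaching a 2-fold change (60.6 against 30.7 FPKM, log2 fold change -0.98, adjusted p = 7.1e-05).

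Rmst (chromosome 10, 91906899-92001132, minus strand) was near the limit of detection. It had 6, 2 and 7 fragments in bFGF/EGF, 0, 0 and 0 in bFGF/BMP4, and 1, 2 and 0 in BMP4, and its mean FPKM of 0.0159 kept it out of the test over filtered genes. Over the group, 15 fragments in bFGF/EGF stood against 0 in bFGF/BMP4, a ratio of 4.57 if the 0 is set at the limit of 3 fragments. This ratio leaves out the counting error of the 15 fragments and the spread between libraries. Against the 3 fragments in BMP4 the ratio was 4.85 (exact 95% interval 1.37 to 26.1, for counting error only). Tested over libraries with no filter on low values, Rmst changed by -0.47 from bFGF/EGF to bFGF/BMP4 (adjusted p = 0.046 by limma), and BMP4 against bFGF/EGF (-0.36, adjusted p = 0.11) and against bFGF/BMP4 (0.11, adjusted p = 0.72) did not pass. The pseudocount of 0.1 exceeds the highest value of Rmst, 0.0534 FPKM in bFGF/EGF replicate 3, so that the size of these changes is set largely by the scale. Sox2, its known partner, had levels of 202, 170 and 130 FPKM under bFGF/EGF, of 149, 125 and 137 under bFGF/BMP4 and of 121, 146 and 142 under BMP4, and no comparison of it passed.

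Sox2ot (chromosome 3, 34158419-34789489, plus strand) was lowest in bFGF/BMP4-treated NSCs. It was at 2.56, 2.61 and 2.80 FPKM in bFGF/EGF, at 1.81, 1.88 and 1.52 under bFGF/BMP4 and at 3.41, 3.74 and 3.24 under BMP4. No groups overlapped, with bFGF/BMP4 lowest, bFGF/EGF between and BMP4 highest. Sox2ot was 1.94-fold higher in BMP4 than in bFGF/BMP4 (log2 fold change 0.96 ± 0.15 SE, adjusted p = 0.0013), and it crossed the 2-fold threshold only without bFGF/BMP4 replicate 2 (1.01) or without BMP4 replicate 3 (1.00). It was lower in bFGF/BMP4 than in bFGF/EGF (-0.59 ± 0.15, adjusted p = 0.0086), and BMP4 against bFGF/EGF did not pass (0.37 ± 0.15, adjusted p = 0.060).

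Sox2, which lies within Sox2ot on the same strand at 34704554-34706610, did not move with it: over the 9 libraries Pearson's r of their log2 values was 0.01. The span of Sox2ot holds 21 annotated genes, of which 5 passed the filter. Gm20515, on the other strand, was higher in bFGF/BMP4 and in BMP4 than in bFGF/EGF (0.453 against 2.02 and 1.79 FPKM, log2 fold changes 1.99 and 1.82, adjusted p = 0.00016 and 0.00022), and Gm42692, on the same strand, was lower in both (0.949 against 0.246 and 0.202 FPKM, -1.58 and -1.80, adjusted p = 0.0017 and 0.00065). Without the strand setting of the counting, fragments of genes that share bases on both strands cannot be told apart.

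Pantr1 (chromosome 1, 42629754-42734584, minus strand) was lowest in BMP4-treated NSCs. It was at 10.4, 10.5 and 8.25 FPKM in bFGF/EGF, at 11.6, 10.1 and 9.45 under bFGF/BMP4 and at 4.38, 8.16 and 6.28 under BMP4. Every BMP4 library lay below every other library, with BMP4 replicate 2 closest to bFGF/EGF replicate 3. BMP4 was 1.69-fold lower than bFGF/BMP4 (log2 fold change -0.76 ± 0.21 SE, adjusted p = 0.028) and 1.58-fold lower than bFGF/EGF (-0.66 ± 0.21, adjusted p = 0.022). These calls depended on single libraries: the first was lost without any one of bFGF/BMP4 replicates 1, 2 and 3 (-0.68, -0.77 and -0.82, adjusted p = 0.098, 0.079 and 0.058), without BMP4 replicate 1 (-0.53, adjusted p = 0.080) or 3 (-0.78, adjusted p = 0.074), and in a fit of the 2 groups alone (adjusted p = 0.072). The second was lost without bFGF/EGF replicate 1 or 2 (-0.61 and -0.60, adjusted p = 0.073 and 0.072), without BMP4 replicate 1 or 3 (-0.43 and -0.69, adjusted p = 0.072 and 0.054), and with the 2 groups alone (adjusted p = 0.061). Between bFGF/BMP4 and bFGF/EGF the difference was 0.10 ± 0.21 (adjusted p = 0.74).

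Pou3f3, whose start overlaps the start of Pantr1 on the other strand, had the same order of groups. It was at 60.3, 51.2 and 44.0 FPKM in bFGF/EGF, at 68.7, 58.5 and 62.4 under bFGF/BMP4 and at 29.9, 32.6 and 34.6 under BMP4. It was lower in BMP4 than in bFGF/BMP4 (log2 fold change -0.96, adjusted p = 0.00064) and than in bFGF/EGF (-0.67, adjusted p = 0.0019), and its r with Pantr1 over the 9 libraries was 0.87, as a description of libraries in 3 groups. Pantr2, which shares the strand and part of the span, differed from both: it was at 3.72, 6.79 and 3.92 FPKM on average and was higher in bFGF/BMP4 than in bFGF/EGF (0.84, adjusted p = 0.0025) and lower in BMP4 than in bFGF/BMP4 (-0.77, adjusted p = 0.0097).

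**Figure D3:**
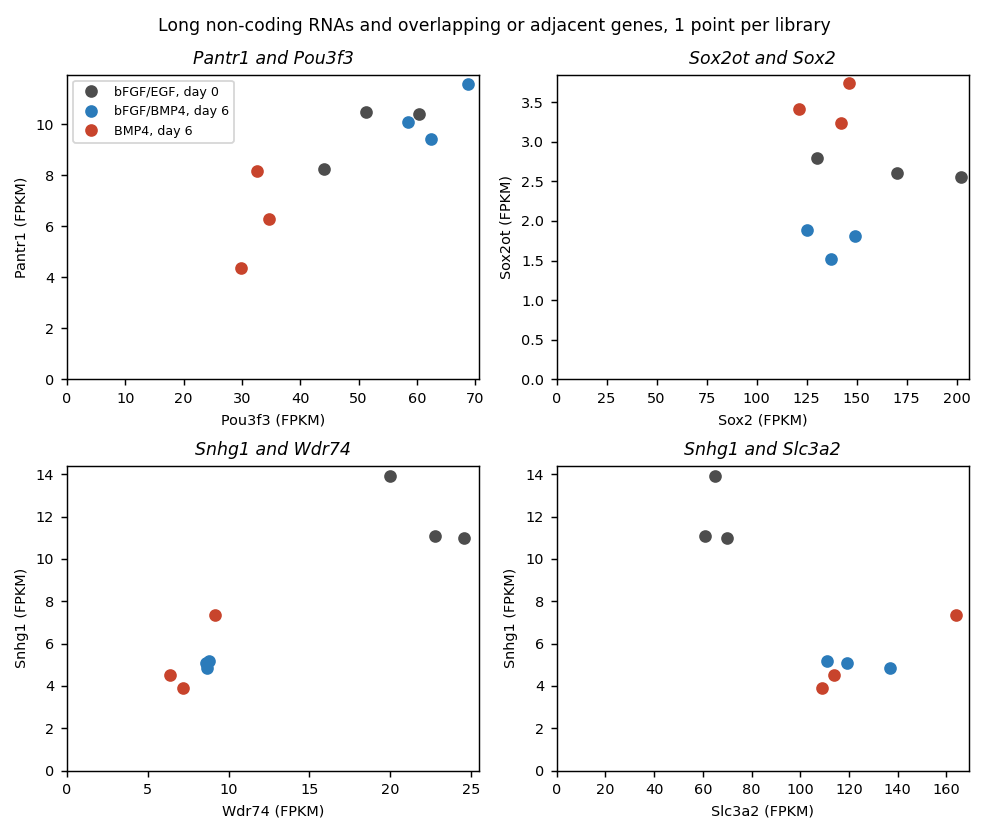
FPKM of Pantr1, Sox2ot and Snhg1 (vertical axes) against that of an overlapping or adjacent gene (horizontal axes) in the 9 libraries, 1 point per library coloured by group, on linear axes from 0. Pantr1 and Pou3f3 were both lowest in the 3 BMP4 libraries, Sox2ot split by group at similar Sox2 levels, Snhg1 and Wdr74 were both highest in bFGF/EGF, and Slc3a2 was lowest there.

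Gas5, Snhg1 and Snhg12 were lower on average in both BMP4 media than in bFGF/EGF, and Snhg1 changed most. Snhg1 (chromosome 19, 8700319-8703812, plus strand) was at 11.1, 11.0 and 13.9 FPKM in bFGF/EGF, at 4.86, 5.09 and 5.17 under bFGF/BMP4 and at 3.88, 7.34 and 4.53 under BMP4. Every bFGF/EGF library lay above all others, and the range of BMP4 enclosed that of bFGF/BMP4. Snhg1 was 2.34-fold lower in bFGF/BMP4 (log2 fold change -1.22 ± 0.21 SE, adjusted p = 0.00095) and 2.33-fold lower in BMP4 (-1.22 ± 0.21, adjusted p = 0.00079), each against the same bFGF/EGF libraries. Between the BMP4 media it differed by 0.00 ± 0.21 (95% interval -0.47 to 0.48, adjusted p = 1.0).

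Gas5 (chromosome 1, 160861793-160866118, plus strand), an RNA that accumulates in growth-arrested cells, did not rise in either BMP4 medium. It was at 21.1, 16.9 and 23.0 FPKM in bFGF/EGF, at 13.1, 14.2 and 12.8 under bFGF/BMP4 and at 12.7, 18.8 and 14.1 under BMP4. It was 1.51-fold lower in bFGF/BMP4 than in bFGF/EGF (log2 fold change -0.59 ± 0.16 SE, adjusted p = 0.013), a call that was lost without bFGF/EGF replicate 3 (-0.50, adjusted p = 0.051). BMP4 overlapped with bFGF/EGF through its replicate 2, the difference of -0.42 ± 0.16 did not pass (adjusted p = 0.051), and without that replicate it was -0.59 (adjusted p = 0.0087). Without bFGF/EGF replicate 2 it was -0.55 (adjusted p = 0.022). The BMP4 media differed by 0.17 ± 0.16 (adjusted p = 0.54).

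Snhg12 (chromosome 4, 132035905-132038762, plus strand) was at 4.26, 5.37 and 4.85 FPKM in bFGF/EGF, at 2.95, 4.07 and 3.40 under bFGF/BMP4 and at 2.51, 3.55 and 2.30 under BMP4. Both BMP4 media lay below every bFGF/EGF library and overlapped with each other. Snhg12 was 1.73-fold lower in BMP4 than in bFGF/EGF (log2 fold change -0.79 ± 0.20 SE, adjusted p = 0.0064). The difference of bFGF/BMP4 from bFGF/EGF was -0.47 ± 0.20 (adjusted p = 0.073) and passed without BMP4 replicate 2 in the shared estimate of spread (adjusted p = 0.037), and BMP4 against bFGF/BMP4 was -0.32 ± 0.20 (adjusted p = 0.31). The snoRNAs within these genes could not be followed: the 10 snoRNA entries within Gas5, 8 within Snhg1 and 5 within Snhg12 were listed at 0 in every library.

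**Figure D4:**
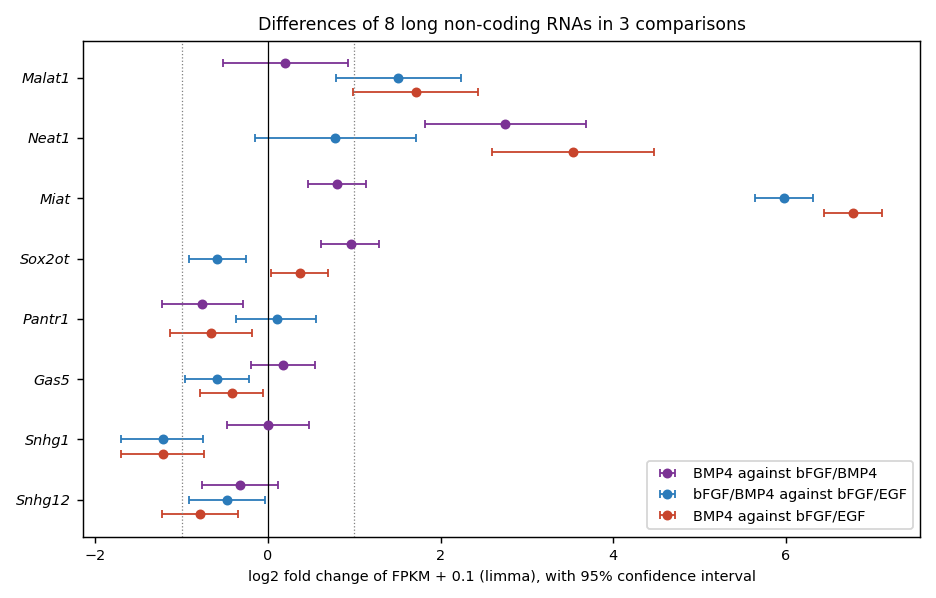
Log2 fold change (horizontal axis, FPKM + 0.1, limma) of the 8 tested members in 3 comparisons, with 95% confidence intervals and dotted lines at 2-fold. Miat lay at 5.98 and 6.78 against bFGF/EGF, Neat1 at 2.75 for BMP4 against bFGF/BMP4, and Snhg1 at -1.22 against bFGF/EGF in both BMP4 media.

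The other snoRNA host RNAs gave a wider view of this group. Of 21 listed RNAs, Gas5, Snhg1 and Snhg12 among them, 20 were in the table and 18 were tested. In bFGF/BMP4 against bFGF/EGF 9 were lower and 1 higher (11 and 2 without the fold threshold; median -0.87 against 0.06 over all genes tested), and in BMP4 against bFGF/EGF 8 were lower and 1 higher (11 and 4 without it; median -0.93 against 0.10). In BMP4 against bFGF/BMP4 0 passed either way with the fold threshold and 1, Snhg6, was lower without it (median 0.05 against 0.00). At an unadjusted p under 0.05 limma also gave 1, and limma-voom gave 0 with the fold threshold. Of all genes tested, 14.1% were lower in bFGF/BMP4 and 15.4% in BMP4 than in bFGF/EGF with the fold threshold. Snhg6 fell most, from 48.9 FPKM in bFGF/EGF to 13.5 in bFGF/BMP4 and 9.12 in BMP4 (log2 fold changes -1.85 and -2.42, adjusted p = 8.7e-06 and 1.0e-06). Snhg18 went the other way, from 0.0811 FPKM to 0.602 and 0.754 (1.96 and 2.16, adjusted p = 0.0020 and 0.00092). Snhg5 was at 7.88, 2.26 and 2.28 FPKM and Snhg16 at 2.64, 0.859 and 0.744, and both had larger log2 fold changes against bFGF/EGF than Snhg1, a difference between genes that was not tested (both were chosen after their values were seen).

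**Figure D5:**
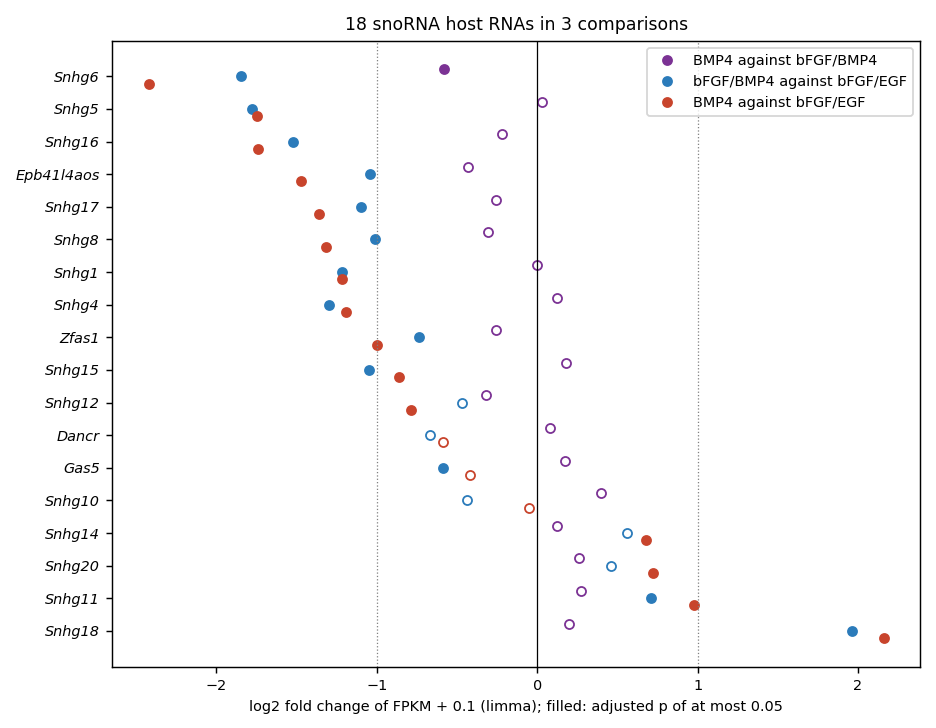
Log2 fold change (horizontal axis, FPKM + 0.1, limma) of the 18 tested snoRNA host RNAs in 3 comparisons, filled where the adjusted p was at most 0.05, with dotted lines at 2-fold. Most points against bFGF/EGF lie below 0, from Snhg6 at -2.42 to Snhg18 at 2.16, and the points of BMP4 against bFGF/BMP4 lie near 0.

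The mRNAs for the proteins that package the snoRNAs fell with the hosts. Of 8 snoRNP core genes, 7 were lower in bFGF/BMP4 (8 without the fold threshold; median -1.83) and 6 in BMP4 (8 without it; median -1.82) against bFGF/EGF with 0 higher, and 0 passed either way between the BMP4 media with or without the fold threshold by limma or limma-voom (1 lower at an unadjusted p under 0.05 by limma; median -0.02). The shares of all genes tested that were lower against bFGF/EGF were 14.1% and 15.4% with the fold threshold. Fbl, which encodes the methyltransferase of box C/D particles, was at 39.7, 7.51 and 7.44 FPKM (-2.39 and -2.40 against bFGF/EGF, adjusted p = 2.2e-06 and 1.5e-06). Nop56, of the same particles, was at 37.3, 9.74 and 7.14, and Gar1, of box H/ACA particles, at 23.4, 5.58 and 5.25.

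The spliced hosts are subject to nonsense-mediated decay. Of 15 genes of this pathway, 3 were lower and 0 higher in bFGF/BMP4 against bFGF/EGF (8 and 0 without the fold threshold; median -0.42), 2 and 0 in BMP4 against bFGF/EGF (9 and 1 without it; median -0.55), and 0 either way between the BMP4 media (1 lower without it and 1 at an unadjusted p under 0.05 by limma, 0 with the fold threshold by limma-voom; median -0.17). With the fold threshold these counts stand beside 14.1% and 15.4% of all genes tested that were lower in bFGF/BMP4 and in BMP4 than in bFGF/EGF, and without it beside 23.6% and 25.3%. The genes past the fold threshold encode parts of the exon junction complex: Magoh was at 40.5, 16.9 and 22.6 FPKM, Magohb at 6.33, 3.00 and 2.72, and Eif4a3 at 95.4, 45.7 and 44.2.

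Neighbours of the hosts differed in direction. Wdr74, a ribosome biogenesis gene 9344 bases from Snhg1, was at 22.8, 24.6 and 20.0 FPKM in bFGF/EGF, at 8.67, 8.59 and 8.81 under bFGF/BMP4 and at 7.19, 9.16 and 6.4 under BMP4, and it was lower in both BMP4 media (log2 fold changes -1.36 and -1.56, adjusted p = 4.0e-05 and 1.0e-05). Slc3a2, an amino acid transporter subunit that overlaps the start of Snhg1 on the other strand, was at 65.2, 122 and 129 FPKM on average and was higher in both, without reaching a 2-fold change (0.91 and 0.96, adjusted p = 0.0013 and 0.00072). Trnau1ap, 312 bases from Snhg12 on the other strand, was at 11.6, 5.46 and 7.91 (-1.05 and -0.55, adjusted p = 0.00085 and 0.026). Zbtb37, which overlaps Gas5 on the other strand, was at 1.53, 3.27 and 2.66 (1.09, adjusted p = 0.017, and 0.72, adjusted p = 0.081).

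The genes whose log2 levels followed each member most closely over the 9 libraries, among 11276 named genes whose mean FPKM reached 1, were Leng8 (r = 0.99) and Abcc5 (0.989) for Malat1, Tgfb3 and Rab3d (both 0.991) for Neat1, and Ccdc157 and Mmd2 (both 0.998) for Miat. Tm4sf1 (0.981) was among those for Sox2ot, and for Pantr1 they were Ppt2 (0.97) and Txndc12 (0.931). For the hosts they were Psmc6 (0.99) and Fkbp3 (0.969) with Gas5, Rrp15 (0.982) and Utp18 (0.981) with Snhg1, and Vps16 (0.963) and B3galt6 (0.954) with Snhg12. The 9 points fall in 3 groups of libraries and share their depth, so that these values describe likeness only. Mmd2 was at 3.14, 76.5 and 116 FPKM in bFGF/EGF, bFGF/BMP4 and BMP4, Tgfb3, a TGF-beta ligand, at 0.284, 0.600 and 4.35, and Rrp15, a ribosome biogenesis gene, at 10.7, 3.33 and 3.46.

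Among long non-coding RNAs at large, more rose than fell, as among all genes tested. Of 2288 tested, 500 (21.9%) were higher and 136 (5.94%) lower in bFGF/BMP4 than in bFGF/EGF, 679 (29.7%) higher and 161 (7.04%) lower in BMP4 than in bFGF/EGF, and 175 (7.65%) higher and 106 (4.63%) lower in BMP4 than in bFGF/BMP4. Their medians were 0.50, 0.61 and 0.10, against 0.06, 0.10 and 0.00 over all genes tested. Malat1 and Miat were among those higher in both comparisons with bFGF/EGF, and Snhg1 was among those lower in both. Of all genes tested, 16.5% were higher and 14.1% lower in bFGF/BMP4 than in bFGF/EGF with the fold threshold. In BMP4 against bFGF/EGF these shares were 21.3% and 15.4%. In BMP4 against bFGF/BMP4 they were 8.41% and 5.14%, near those of the long non-coding RNAs.

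A further list held 28 long non-coding RNAs with known roles, of which 23 were tested. With the fold threshold, 16.5% of all genes tested were higher and 14.1% lower in bFGF/BMP4 against bFGF/EGF. These shares were 21.3% and 15.4% in BMP4 against bFGF/EGF, and 8.41% and 5.14% in BMP4 against bFGF/BMP4. In bFGF/BMP4 against bFGF/EGF 4 were higher and 4 lower (8 and 6 without the fold threshold; median 0.22), in BMP4 against bFGF/EGF 5 and 2 (6 and 4; median 0.10), and in BMP4 against bFGF/BMP4 2 and 0 (4 and 4; median -0.05). Mir22hg, the host of miR-22, rose from 3.09 FPKM in bFGF/EGF to 14.9 in bFGF/BMP4 and 28.2 in BMP4 (2.22 and 3.12, adjusted p = 9.7e-05 and 7.2e-06). Mir17hg, the host of the growth-linked miR-17 cluster, fell from 2.28 to 0.245 and 0.301 (-2.77 and -2.56, adjusted p = 1.5e-05 and 1.7e-05). Mir124a-1hg, a host of the neuronal miR-124, was at 0.519, 0.0409 and 0.575 and Meg3, an imprinted RNA, at 0.229, 0.0567 and 0.275, both higher in BMP4 than in bFGF/BMP4 (2.26 and 1.26, adjusted p = 0.0010 and 0.033). Of 8 small structural RNAs, which are short and often have no poly(A) tail, 1 was tested: Rn7sk, the RNA that holds the elongation factor P-TEFb, was at 0.838, 1.10 and 4.14 FPKM and was higher in BMP4 than in bFGF/BMP4 (1.77, adjusted p = 0.013) and bFGF/EGF (2.09, adjusted p = 0.0018).

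Markers of cell types differed between the groups as well, while the members did not share 1 pattern. Sox2 was high in every group, whereas the neural stem cell markers summed to 1670-1770, 659-763 and 1410-1880 FPKM in bFGF/EGF, bFGF/BMP4 and BMP4, since Nes fell from 151 to 3.55 and 15.8 and Vim was at 677, 167 and 892. Of 6 such markers, 1 was higher and 3 lower in bFGF/BMP4 against bFGF/EGF, 1 and 1 in BMP4 against bFGF/EGF, and 2 and 0 in BMP4 against bFGF/BMP4. All 4 oligodendrocyte precursor markers fell in both comparisons with bFGF/EGF, with sums of 460-671, 200-327 and 24.7-54.0 FPKM, mostly Olig2, with Sox10 at 0 in both BMP4 media. The ependymal sum was 6.13-10.8, 9.48-10.4 and 52.2-61.8, mostly Foxj1, and 2 of 3 markers rose in both comparisons of BMP4. The endothelial sum (0.101-0.237, 1.08-1.63 and 2.78-4.10, mostly Kdr; 1 of 4 higher in each comparison) and the mural sum (0.0394-0.0829, 0.576-0.898 and 1.02-1.77; 1, 2 and 1 of 3 higher in bFGF/BMP4 against bFGF/EGF, BMP4 against bFGF/EGF and BMP4 against bFGF/BMP4) had the same order of groups as Miat. Neuron and neuroblast markers summed to 6.80-9.16, 2.46-3.43 and 4.30-8.03 (0 higher and 1 lower of 5, 1 and 1, 2 and 1 in the same order of comparisons) and microglia markers to 0.411-0.876, 0.153-0.305 and 0.177-0.291 (1 of 5 lower, 1 lower and 0). The filter left 1 of 4 endothelial, 2 of 3 mural, 2 of 3 ependymal, 4 of 5 neuronal and 1 of 5 microglial markers to be tested. The part of these changes in those of the long non-coding RNAs was not tested.

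BMP4 replicate 2 stood apart in its group. It was the highest BMP4 library for 6 of the 8 tested members and the lowest for Malat1 and Miat, and the deposited FPKM of all genes summed to 326302.3 in it, against 256229.5 to 294651.6 in the others. Without it, the log2 fold change of BMP4 against bFGF/EGF was 1.99 for Malat1, -1.48 for Snhg1 and 3.38 for Neat1. bFGF/EGF replicate 3 was the highest of its group for 6 of 8 members.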

How the data were processed

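RNA of 9 libraries of adult mouse SVZ NSCs was sequenced on an Illumina NovaSeq instrument. Per the submitters' processing notes, the authors used fastp 0.19.7, HISAT2 2.0.5 and featureCounts 1.5.0-p3 with mm39 (GRCm39), and they deposited FPKM values for 55704 genes. The program that computed FPKM, the annotation release, the selection of RNA and the strand setting are not given in the sources used here. Whole fragment numbers were recovered from the FPKM for all 30860 genes above 0 (tolerance 0.02). The length of each gene was searched for until whole numbers fitted, which a gene above 0 in a single library can always reach. The full recovery is therefore not a check of these numbers. The constant behind each library lay between 0.918 and 1.072 of its own fragments, which shows a scaling by the authors that was not identified. A count of 3 fragments was used as the detection limit, for counting error only.

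Coordinates, biotypes and transcripts came from GENCODE vM39 on GRCm39, in which 54749 of 55414 Ensembl identifiers were found. The gene lengths recovered with the fragments equalled the GENCODE exon lengths in 8.7% of genes. For Sox2ot the recovered length was 11594 bases against 25442, so that the gene models counted can differ from the spans given here. Differences were tested with limma 3.58.1 in R 4.3.3 (trend) on log2(FPKM + 0.1), over the 20207 genes whose mean FPKM reached 0.1, with the 9 libraries in 1 fit and Benjamini-Hochberg adjustment over all of them. Rmst did not pass the filter. A call needed an adjusted p of at most 0.05 and, where stated, a fold change of at least 2. Confidence intervals are 95%. The count models of the study were not used because the values tested here are the deposited FPKM. The paper says that its supplement gives the raw counts, which were not used here. Rebuilt fragments entered limma-voom as an alternative. The tests were checked on simulated data. Tables and figures used Python 3.11.15, pandas 2.3.3, numpy 2.4.6 and matplotlib 3.10.9.

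All 9 members were named, with their overlapping and nearest protein-coding genes, the 2 genes most correlated with each member, and the 2 genes with the largest called change per list and comparison, and others were chosen after their values were seen. A few neighbouring or correlated genes and 1 list of markers are not reported here. The members and the lists (snoRNA host RNAs, snoRNP core proteins, nonsense-mediated decay factors, paraspeckle and nuclear speckle proteins, protein partners of Miat and Rmst, other long non-coding RNAs, small structural RNAs and markers of cell types) were chosen with earlier results of these data known. The promoter sequences are from RefSeq, and 5 of the 9 members had an entry.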

Additional observations from a re-analysis of the deposited data

How the results depend on the processing

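The 24 log2 fold changes of the 8 tested members were recomputed under 18 alternatives each, and 402 of the 432 values kept their direction and their side of an adjusted p of 0.05. The 7 that changed sign belonged to results whose main value was close to 0 (Snhg1 0.00 and Pantr1 0.10). Snhg1 in BMP4 against bFGF/BMP4 changed sign with limma-voom (-0.00), on the TPM scale (-0.07), with quantile normalization (-0.02) and with median-ratio scaling (-0.01). It also changed sign with a library left out, where all such fits gave -0.26 to 0.19. Pantr1 in bFGF/BMP4 against bFGF/EGF changed sign with a library left out, where all such fits gave -0.02 to 0.16. Calls lost or gained without 1 library are given with each gene. Beyond these, Gas5 in BMP4 against bFGF/EGF passed with the filter at a mean FPKM of 1, on the TPM scale, with median-ratio scaling and with limma-voom (adjusted p = 0.017 to 0.041), and Snhg12 in bFGF/BMP4 against bFGF/EGF passed on the TPM scale and with limma-voom (adjusted p = 0.044 and 0.048). The cause was not tested.

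When a library was left out, the members called were 1 to 2 higher in BMP4 than in bFGF/BMP4 and 2 to 3 higher in bFGF/BMP4 than in bFGF/EGF, and the other counts of members did not change. Without the fold threshold the counts of members rose from 1 to 3 higher and from 0 to 1 lower (BMP4 against bFGF/BMP4), from 1 to 3 lower (bFGF/BMP4 against bFGF/EGF) and from 1 to 3 lower (BMP4 against bFGF/EGF), since that setting drops a condition. Over all genes, a pseudocount of 1 gave 890 higher and 559 lower in BMP4 against bFGF/BMP4 in place of 1699 and 1039, 1723 and 1821 in bFGF/BMP4 against bFGF/EGF in place of 3327 and 2847, and 2326 and 2038 in BMP4 against bFGF/EGF in place of 4297 and 3103. A mean FPKM of at least 1 gave 1012 higher in BMP4 against bFGF/BMP4 and 2649 in BMP4 against bFGF/EGF. Without the fold threshold 1797 were lower in BMP4 against bFGF/BMP4, 5058 higher and 4761 lower in bFGF/BMP4 against bFGF/EGF, and 5105 lower in BMP4 against bFGF/EGF. Quantile normalization moved the median of all genes in BMP4 against bFGF/EGF from 0.10 to -0.035, and the members' calls did not change under it.

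Samples with the same replicate number did not deviate together (correlations of -0.084 to 0.125), and not every sample correlated best with its own number, so that they were not treated as pairs. With the replicate block, Snhg12 in bFGF/BMP4 against bFGF/EGF passed (-0.47, adjusted p = 0.036), and no other call of a member changed. Depth limits Rmst, and Miat and Neat1 in bFGF/EGF, where few fragments were found.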
